A study of Mus musculus with 6 samples.

Results

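The genes described here are 27 genes of cholesterol synthesis, sterol sensing and sterol handling, chosen by name from a fixed list out of the 23282 entries of the deposited count files, and each of the 27 had 1 entry. They hold 20 enzymes of the route from acetyl-CoA to cholesterol, 4 genes of the SREBP2 control circuit (Srebf2, Scap, Insig1 and Insig2) and 3 genes of sterol transport, storage and receptor turnover (Stard4, Soat1 and Mylip). The list does not hold every enzyme of the pathway. The study sequenced the 3' ends of messenger RNA from BMOL cells, described in the labels as a progenitor line from mouse liver, in 6 libraries. Of these, 3 had the treatment vector control and 3 had TXNIP-expressing constructs; the latter are called the TXNIP libraries below. TXNIP is an arrestin-fold protein that inhibits thioredoxin and lowers the uptake of glucose. The labels give no clone, promoter or culture conditions, and nothing in them ties a library to a culture of its own, so the p-values measure the spread between these libraries, which may be technical.

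Cholesterol is built in the endoplasmic reticulum and cytosol from acetyl-CoA by way of mevalonate, isoprenoid diphosphates and squalene, and squalene is then closed to lanosterol and trimmed to cholesterol. The transcription factor SREBP2 drives most of these genes. When membrane sterol is high, INSIG proteins hold SREBP2 and its escort SCAP in the endoplasmic reticulum. When sterol is low, SCAP carries SREBP2 to the Golgi, where it is cut and released to the nucleus. In the opposite direction, the sterol-activated LXR receptors switch on efflux pumps and MYLIP, a ubiquitin ligase that sends lipoprotein receptors to degradation.

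The libraries held 8725624 to 15119775 counts. Over the 3 libraries of a group, a member of the list had between 19 reads (Mylip in the controls) and 26991 reads (Msmo1 in the controls). Txnip stood at 38.2, 9.63 and 10.8 CPM in the controls, against 217, 298 and 289 CPM in the TXNIP libraries, with no overlap (log2 fold change 3.82 ± 0.46, SE; edgeR adjusted p = 2.76e-05). A CPM is the number of counts of a gene scaled to the same total in every library, here after edgeR's TMM correction. The labelled cell type did not hold equally in both groups. The summed level of 22 listed leukocyte markers was 74.2 to 97.0 CPM in the controls and 8740 to 9357 CPM in the TXNIP libraries. Of these, 17 passed the filter on low counts and were higher, but 11 of the 17 had fewer than 10 reads over the controls and passed through the TXNIP libraries alone, so the count of higher markers was largely set by the filter. Itgam, Adgre1, Cd52 and Ctss had no read in the controls, and Clec4f, Marco and Cd3e had none in any library. Of 18 epithelial and ductular markers, 12 were tested and 11 of them were lower, where 10 of the 12 had fewer than 10 reads over the TXNIP libraries and passed the filter through the controls. The sum of the 18, 3092 to 4232 CPM in the controls and 3913 to 5543 CPM in the TXNIP libraries, was not lower there, since it includes Spp1 (means of 352 and 4844 CPM), the 1 marker that was higher. Of the 18, 12 had no read in the TXNIP libraries, and 2 of these had none in the controls either. Cdh1 went from 41374 reads over the controls to 3 over the TXNIP libraries, and Krt18 from 19564 to 1. Sox9 and Dsg2, with means of 74.6 and 180 CPM in the controls, had no read in the TXNIP libraries. Epcam had none there either, but it had only 52 reads over the controls and was not tested. Prom1 and Cldn7 had no read in any library. Hepatocyte markers were few in both groups, with 6 of 15 tested, 4 lower and 1 higher. Of the 6, 3 had fewer than 10 reads over the TXNIP libraries and passed the filter through the controls. The summed level of the 15 was 344 to 445 CPM in the controls and 99.2 to 112 CPM in the TXNIP libraries. Of the 15, 4 had no read in any library. That sum was mostly Rbp4 in the controls (mean 326 CPM, against 0.0624 CPM) and mostly Afp in the TXNIP libraries (mean 102 CPM, against 11.1 CPM), the 1 hepatocyte marker that was higher. Every difference below lies in the same libraries as these markers, and their part in it was not tested. In RNA from whole cultures, fewer cells of a type and less RNA per cell cannot be told apart.

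Where these genes start gives the first view of what they share. RefSeq promoter windows of GRCm38.p6, from 250 bases before to 50 bases after a gene's start, could be matched for 23 of the 27 genes. The windows were searched on both strands for TCACNCCAC, the core of the sterol regulatory element that SREBP binds, for CCAAT, the box bound by NF-Y, which assists SREBP at sterol genes, and for GGGCGG, an Sp1 box. CCAAT was found for 21 of the 23 genes (91.3%), against 41.1% of the 27025 genes with a window and 37.4% of all windows. GGGCGG was also found for 21 of the 23, against 38.2% of all genes and 35.7% of all windows. The sterol element core was found only for Hmgcs1 (4.35% of the 23), against 1.44% of all genes and 1.24% of all windows. Of the 13 matched genes that fell, 12 held a CCAAT. The table of all genes includes many that are not protein-coding. A match is a description of letters and not a shown binding site. The 6 windows printed are those of 3 enzymes that fell (Hmgcs1, Cyp51 and Ebp), of the 1 enzyme that rose (Lbr), and of the paralogs Insig1, which fell, and Insig2, which did not pass. They run 5' to 3' along the gene's strand, with the sterol element core and each CCAAT box, read on either strand, in capitals.
Hmgcs1 (chr13:119690101-119690400, plus strand): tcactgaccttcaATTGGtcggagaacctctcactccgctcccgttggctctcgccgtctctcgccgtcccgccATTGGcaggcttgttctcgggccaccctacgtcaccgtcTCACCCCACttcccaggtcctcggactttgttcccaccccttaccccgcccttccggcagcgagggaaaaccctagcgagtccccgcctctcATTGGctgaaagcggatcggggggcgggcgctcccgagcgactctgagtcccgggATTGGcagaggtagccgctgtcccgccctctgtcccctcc
Cyp51 (chr5:4104648-4104947, minus strand): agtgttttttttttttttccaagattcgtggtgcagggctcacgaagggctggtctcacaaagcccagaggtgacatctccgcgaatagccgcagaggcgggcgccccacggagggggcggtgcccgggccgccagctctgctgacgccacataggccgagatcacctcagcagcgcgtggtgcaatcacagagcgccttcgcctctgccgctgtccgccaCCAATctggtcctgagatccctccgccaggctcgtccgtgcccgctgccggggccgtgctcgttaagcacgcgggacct
Ebp (chrX:8193463-8193762, minus strand): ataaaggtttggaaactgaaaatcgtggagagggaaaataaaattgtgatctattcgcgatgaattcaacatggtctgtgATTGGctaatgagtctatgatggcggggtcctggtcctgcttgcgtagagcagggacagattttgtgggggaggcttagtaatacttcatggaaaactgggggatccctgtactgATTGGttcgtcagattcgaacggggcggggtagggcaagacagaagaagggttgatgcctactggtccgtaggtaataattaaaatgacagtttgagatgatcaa
Lbr (chr1:181842352-181842651, minus strand): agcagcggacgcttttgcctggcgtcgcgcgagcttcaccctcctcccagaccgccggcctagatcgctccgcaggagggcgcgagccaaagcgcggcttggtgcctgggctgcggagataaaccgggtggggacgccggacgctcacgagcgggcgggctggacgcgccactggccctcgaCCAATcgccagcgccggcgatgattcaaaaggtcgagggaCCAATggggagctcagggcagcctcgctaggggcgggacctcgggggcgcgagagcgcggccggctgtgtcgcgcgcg
Insig1 (chr5:28071162-28071461, plus strand): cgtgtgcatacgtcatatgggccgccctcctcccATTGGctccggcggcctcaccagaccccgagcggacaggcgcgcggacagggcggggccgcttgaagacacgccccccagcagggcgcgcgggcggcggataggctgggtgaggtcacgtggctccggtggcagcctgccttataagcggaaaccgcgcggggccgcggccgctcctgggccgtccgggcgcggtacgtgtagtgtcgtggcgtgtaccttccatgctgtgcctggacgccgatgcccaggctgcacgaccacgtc
Insig2 (chr1:121332540-121332839, minus strand): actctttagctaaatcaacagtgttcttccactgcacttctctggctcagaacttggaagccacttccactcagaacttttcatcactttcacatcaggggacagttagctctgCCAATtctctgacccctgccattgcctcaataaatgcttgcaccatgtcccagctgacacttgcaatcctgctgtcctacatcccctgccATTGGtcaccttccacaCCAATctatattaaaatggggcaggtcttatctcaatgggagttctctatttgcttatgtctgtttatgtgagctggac
In Hmgcs1 the capitals hold 1 sterol element core, which starts at position -137 from the gene's start and overlaps no CCAAT, and 4 CCAAT boxes. The window of Cyp51 holds 1 CCAAT, that of Ebp 2 and that of Lbr 2. The window of Insig1 holds 1 CCAAT, and the outermost of the 3 windows of Insig2 holds 3. A CCAAT box was thus found in windows of genes that fell, a gene that rose and a gene that did not pass.

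All 27 genes passed the filter on low counts and were tested, Mylip through the TXNIP libraries, where it was higher. In the TXNIP libraries 15 fell, 3 rose and 9 did not pass (edgeR's quasi-likelihood test, Benjamini-Hochberg adjusted p below 0.05). The share that changed, 66.7%, was close to the 64.5% of all 12088 tested genes. The share that fell was 55.6%, where 33.9% of all tested genes fell, and the 3 that rose compare with 30.6% of all tested genes. The groups did not overlap for 18 of the 27, against 70.4% of all tested genes. The median log2 fold change was -0.54 over the 27 genes and -0.60 over the 20 enzymes, against -0.04 over all tested genes. The list was chosen with earlier results of these data known, so these shares and medians describe it and are not a test. With replicate 1 of both groups left out, a choice made after seeing the data, 16 fell and 3 rose. Leaving out single libraries gave 12 to 16 lower and 3 higher.

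**Figure D1:**
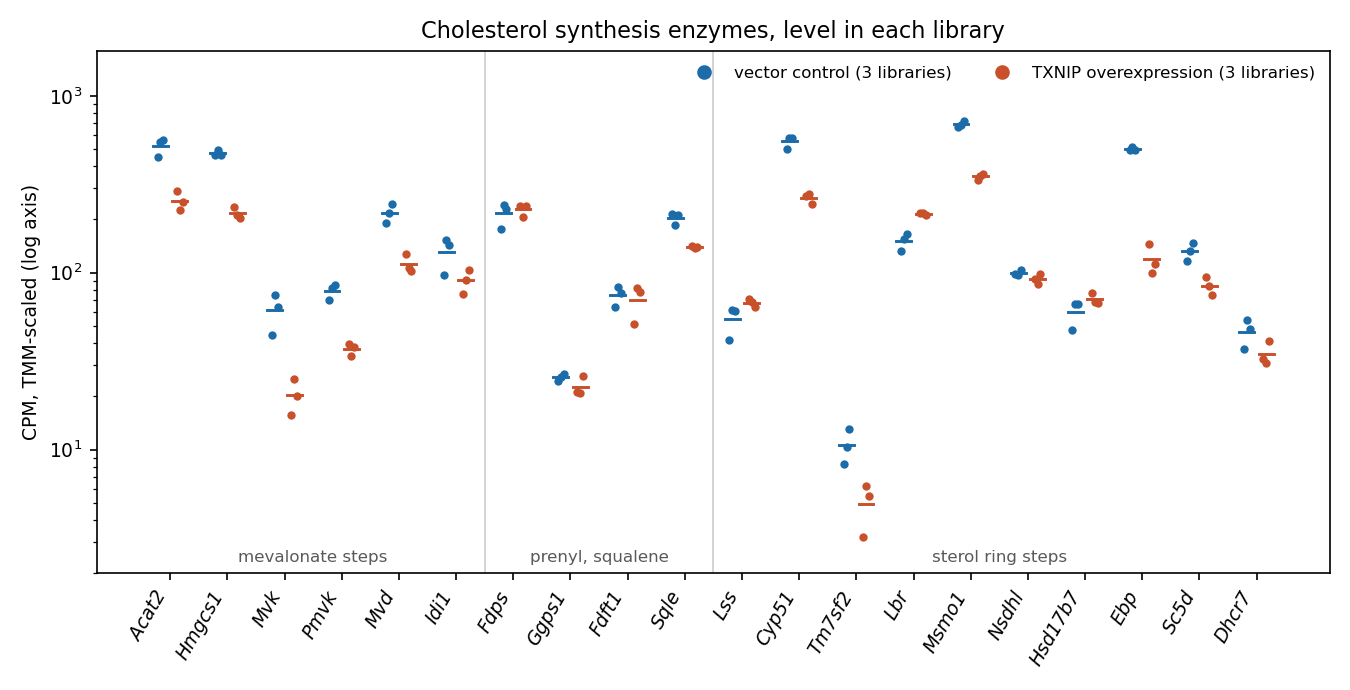
Level of the 20 synthesis enzymes in each of the 6 libraries, in pathway order, as TMM-scaled CPM on a log axis. Points are libraries and short lines are group means; the 6 mevalonate genes are lower in the TXNIP libraries, with Idi1 overlapping between the groups, and Fdps, Ggps1, Fdft1, Nsdhl and Dhcr7 overlap as well.

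Where 33.9% of all tested genes fell, the 6 genes of the mevalonate steps all fell. Their log2 fold changes lay between -1.59 and -0.54, with a median of -1.06. Their summed level was 1316, 1572 and 1566 CPM in the controls, against 781, 696 and 717 CPM in the TXNIP libraries. That is a mean of 731 ± 44.3 against 1484 ± 146 CPM (SD, n = 3 each), a ratio of 0.493. The same libraries carried 8740 CPM or more of leukocyte markers.

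Hmgcs1, the cytosolic HMG-CoA synthase (chr13:119690379-119708260, protein-coding, GRCm38), had 464, 492 and 466 CPM in the controls, against 234, 212 and 203 CPM in the TXNIP libraries. The 3 controls lay close together and above every library of the other group. Its log2 fold change was -1.13 ± 0.12 (SE; edgeR adjusted p = 3.15e-06). Acat2, the cytosolic thiolase that joins the first pair of acetyl-CoA units, had 449, 551 and 561 CPM and then 288, 227 and 249.7 CPM, a log2 fold change of -1.03 ± 0.14 (edgeR adjusted p = 3.1e-05). The groups did not overlap. Up to 353 bases at the end of its transcript match Acat3 and, on the opposite strand, Tcp1 at 98.6% identity, so that reads could be assigned to any of them. Acat3 (284 ± 18.3 and 255 ± 22.9 CPM, SD, n = 3 each) and Tcp1 (360.3 ± 16.6 and 325 ± 29.4 CPM) did not pass.

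Mvk, mevalonate kinase, had 44.7, 74.8 and 64.3 CPM in the controls, against 15.7, 25.1 and 20.03 CPM in the TXNIP libraries. Within both groups replicate 1 was the lowest and replicate 2 the highest, and the groups did not overlap. Its log2 fold change of -1.59 ± 0.22 (edgeR adjusted p = 5.29e-05) was the lowest of the mevalonate genes. Pmvk, the phosphomevalonate kinase that acts next, had 69.7, 82.0 and 85.6 CPM and then 39.5, 34.0 and 38.1 CPM (log2 fold change -1.09 ± 0.15; edgeR adjusted p = 3.2e-05). Mvd, the decarboxylase that yields isopentenyl diphosphate, had 192, 219 and 246 CPM and then 127, 107 and 103 CPM (log2 fold change -0.97 ± 0.14; edgeR adjusted p = 6.07e-05). Neither gene's groups overlapped. Idi1, the isomerase of isopentenyl diphosphate, had 96.8, 153 and 143 CPM in the controls, against 76.2, 90.9 and 104 CPM in the TXNIP libraries. Control replicate 1 lay below TXNIP replicate 3, so the groups overlapped. Its log2 fold change was -0.54 ± 0.18 (edgeR adjusted p = 0.0208). Leaving out any of 4 libraries ended this call, with edgeR adjusted p values of 0.0965 (control replicate 2), 0.0703 (control replicate 3), 0.076 (TXNIP replicate 1) and 0.0611 (TXNIP replicate 2).

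The next steps join isoprenoid units into farnesyl and geranylgeranyl diphosphate and squalene, and then oxidise squalene. Of their 4 genes, 1 fell and 3 did not pass, so that 25% changed, against 64.5% of all tested genes. The 1 that fell acts on squalene, and the 3 that join units did not pass. Sqle, squalene epoxidase, the oxygen-requiring entry to the sterol branch, had 215, 186 and 212 CPM in the controls, against 141, 139 and 139.6 CPM in the TXNIP libraries. The 3 TXNIP libraries were nearly level (SD 1.19 CPM) and lay below all controls. The log2 fold change of Sqle was -0.55 ± 0.12 (edgeR adjusted p = 0.00136).

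Fdps, farnesyl diphosphate synthase, had 177, 243 and 229 CPM in the controls, against 238, 208 and 239.6 CPM in the TXNIP libraries, and the groups overlapped (log2 fold change 0.08 ± 0.14; edgeR adjusted p = 0.649). Ggps1, which makes the geranylgeranyl donor of protein prenylation, had 24.5, 25.8 and 26.8 CPM and then 21.1, 20.8 and 26.1 CPM (edgeR adjusted p = 0.396). Fdft1, squalene synthase, had 64.4, 82.8 and 76.4 CPM and then 51.2, 81.5 and 77.5 CPM (edgeR adjusted p = 0.685). In each group replicate 1 was the lowest for Fdft1. The last 500 bases of a Fdft1 transcript match the cathepsin B gene Ctsb on the opposite strand over their whole length. Ctsb rose from 109 ± 4.85 to 1362 ± 185 CPM (SD, n = 3 each; edgeR adjusted p = 5e-10). Whether the counting used strand is not stated in these sources, so reads of Fdft1 and Ctsb may not be separated. The last 500 bases of a Fdps transcript match Gm43738, a protein-coding gene on the same strand, at 100% identity, and Gm43738 was not analysed here. Fdps, Ggps1 and Idi1 also have processed pseudogenes that match their transcript ends at 95% identity or more, and their values are uncertain to that extent.

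Of the 10 enzymes that act on the sterol rings, 5 fell, 1 rose and 4 did not pass. The share that changed, 60%, was near the 64.5% of all tested genes, and 50% fell, against 33.9%. The summed level of the 10 was 2141, 2353 and 2404 CPM in the controls, against 1341, 1293 and 1282 CPM in the TXNIP libraries, a ratio of means of 0.568. Leukocyte markers summed to 8740 to 9357 CPM in the TXNIP libraries. Ebp, the sterol isomerase (chrX:8185329-8193512, protein-coding, GRCm38), fell most. It had 496, 512 and 496 CPM in the controls, against 146, 99.2 and 113 CPM in the TXNIP libraries. The control values lay close together and far above the highest of the others. Its log2 fold change was -2.07 ± 0.15 (edgeR adjusted p = 1.23e-07), 4.20-fold lower.

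Cyp51, the lanosterol demethylase, had 498, 581 and 580.4 CPM in the controls, against 272, 278 and 245 CPM in the TXNIP libraries, with no overlap (log2 fold change -1.06 ± 0.12; edgeR adjusted p = 8.01e-06). Up to 166 bases of its transcript end match Akap9 on the opposite strand, and Akap9 rose from 72.0 ± 8.65 to 129 ± 40.8 CPM (SD, n = 3 each; edgeR adjusted p = 0.0028). Msmo1, the methyl sterol oxidase that acts after it, had 665, 682 and 724 CPM and then 336, 355 and 361 CPM (log2 fold change -0.98 ± 0.11; edgeR adjusted p = 8.21e-06). Sc5d, the sterol desaturase that follows EBP, had 116, 133 and 147 CPM and then 94.3, 83.6 and 75.0 CPM. Its groups did not overlap, and its log2 fold change was -0.65 ± 0.14 (edgeR adjusted p = 0.00145).

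A pair of reductases that reduce the same double bond of the sterol nucleus moved apart. Tm7sf2, which resides in the endoplasmic reticulum, had 8.24, 10.4 and 13.1 CPM in the controls, against 3.21, 6.18 and 5.44 CPM in the TXNIP libraries, a log2 fold change of -1.09 ± 0.33 (edgeR adjusted p = 0.0117). It did not pass once control replicate 3 was left out (edgeR adjusted p = 0.0645). Up to 279 bases of a Tm7sf2 transcript end are shared with its neighbour Vps51, which also fell, from 82.2 ± 6.22 to 44.2 ± 8.24 CPM (SD, n = 3 each; edgeR adjusted p = 0.000373). Lbr, the lamin B receptor of the inner nuclear membrane, which carries the same reductase activity, had 133, 155 and 165 CPM in the controls, against 218, 219 and 212 CPM in the TXNIP libraries. All 3 TXNIP libraries lay above all controls. Lbr rose by a log2 fold change of 0.52 ± 0.12 (edgeR adjusted p = 0.00271). Its transcript end also matches Dnah14 on the opposite strand, over 440 bases, and Dnah14 was not analysed here.

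The 4 ring enzymes that did not pass were Lss, Hsd17b7, Nsdhl and Dhcr7. Lss, the cyclase that makes lanosterol, had 41.9, 61.6 and 61.1 CPM in the controls, against 71.2, 68.1 and 63.6 CPM in the TXNIP libraries, and the groups did not overlap (edgeR adjusted p = 0.132). Hsd17b7, the keto reductase of the demethylation complex, had 47.5, 66.4 and 66.2 CPM and then 76.7, 68.3 and 67.7 CPM, again without overlap (edgeR adjusted p = 0.209). For both, the lowest library was control replicate 1, and replicates 2 and 3 of the controls lay close to the other group. Up to 109 bases of a Lss transcript end match 4930483K19Rik on the opposite strand. That gene had means of 3.82 and 2.88 CPM in the controls and TXNIP libraries and did not pass. Nsdhl, the decarboxylating dehydrogenase of the same complex, had 98.4, 97.7 and 104 CPM and then 92.3, 85.9 and 98.0 CPM (edgeR adjusted p = 0.415). Dhcr7, which carries out a last reduction to cholesterol, had 36.8, 53.9 and 48.2 CPM and then 32.7, 30.7 and 41.0 CPM. Its log2 fold change of -0.42 ± 0.19 did not pass (edgeR adjusted p = 0.0664), and it passed once control replicate 1 (adjusted p = 0.0156) or TXNIP replicate 3 (0.0466) was left out, and with library size alone (0.0374).

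**Figure D2:**
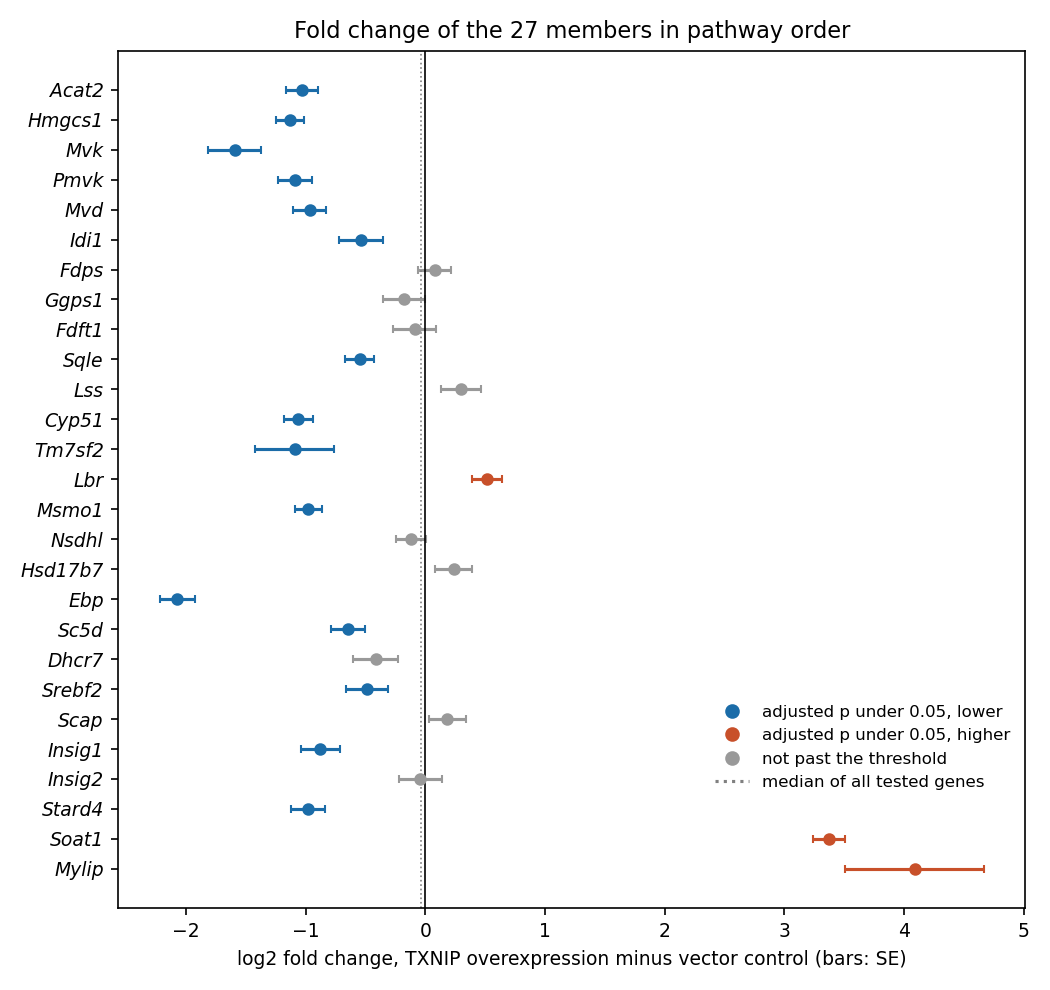
Log2 fold change of the 27 genes in pathway order, TXNIP overexpression minus vector control, with standard errors, from edgeR. Blue points fell, orange points rose and grey points did not pass; the dotted line is the median of all tested genes, -0.04, and Soat1 (3.37) and Mylip (4.09) stand far to the right.

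The spread among the controls was uneven in 1 respect. Control replicate 1 was the lowest of the 3 controls for 17 of the 20 enzymes, and the highest for 1. Among the TXNIP libraries, replicate 1 was the lowest for 5, replicate 2 for 8 and replicate 3 for 7. The coefficient of variation over the 20 enzymes had a median of 11.7% in the controls and 9.65% in the TXNIP libraries. Of the 12 enzymes that fell, control replicate 1 was the lowest control for 10, and it was thus the control nearest to the TXNIP libraries for those. Of 20 tested proliferation markers, 5 were lower, 3 higher and 12 not past, so that 40% changed, against 64.5% of all tested genes. The summed level of these markers was 3708 to 4423 CPM in the controls and 3842 to 3924 CPM in the TXNIP libraries.

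Of the 4 SREBP2 control genes, 2 fell and 2 did not pass, so that 50% changed, against 64.5% of all tested genes. Epithelial markers such as Sox9 and Dsg2 had no read in the same TXNIP libraries, where the listed marker Spp1 was higher. Srebf2, which encodes SREBP2, had 161, 198 and 235 CPM in the controls, against 178, 128 and 118 CPM in the TXNIP libraries. TXNIP replicate 1 lay above control replicate 1, so that the groups overlapped. Its log2 fold change was -0.49 ± 0.18 (edgeR adjusted p = 0.0308). Here too any of 4 libraries decided the call, with edgeR adjusted p values of 0.0653 and 0.139 without control replicate 2 or 3 and of 0.121 and 0.149 without TXNIP replicate 2 or 3. With replicate 1 of both groups left out, a choice made after seeing the data, the log2 fold change was -0.82 ± 0.09. Scap, the escort, had 41.0, 50.8 and 45.8 CPM and then 46.1, 50.9 and 59.3 CPM without passing (log2 fold change 0.18 ± 0.16; edgeR adjusted p = 0.321). Up to 160 bases of a Scap transcript end match 5830462I19Rik on the opposite strand, which was not analysed here.

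Insig1, the retention protein whose gene is itself an SREBP target, had 71.0, 83.1 and 94.6 CPM in the controls, against 39.4, 42.2 and 53.6 CPM in the TXNIP libraries. The groups did not overlap, and the log2 fold change was -0.88 ± 0.16 (edgeR adjusted p = 0.000494). Insig2, its paralog, which is not induced by SREBP in the same way, had 23.7, 25.8 and 25.9 CPM and then 23.6, 28.1 and 21.6 CPM. These values overlapped (log2 fold change -0.04 ± 0.18; edgeR adjusted p = 0.85). The window of Insig1 printed above has 1 CCAAT and 3 GGGCGG, and the outermost window of Insig2 has 3 CCAAT and no GGGCGG. The other two windows of Insig2 have 1 GGGCGG each and no CCAAT, so that each gene has both motifs in at least 1 window.

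**Figure D3:**
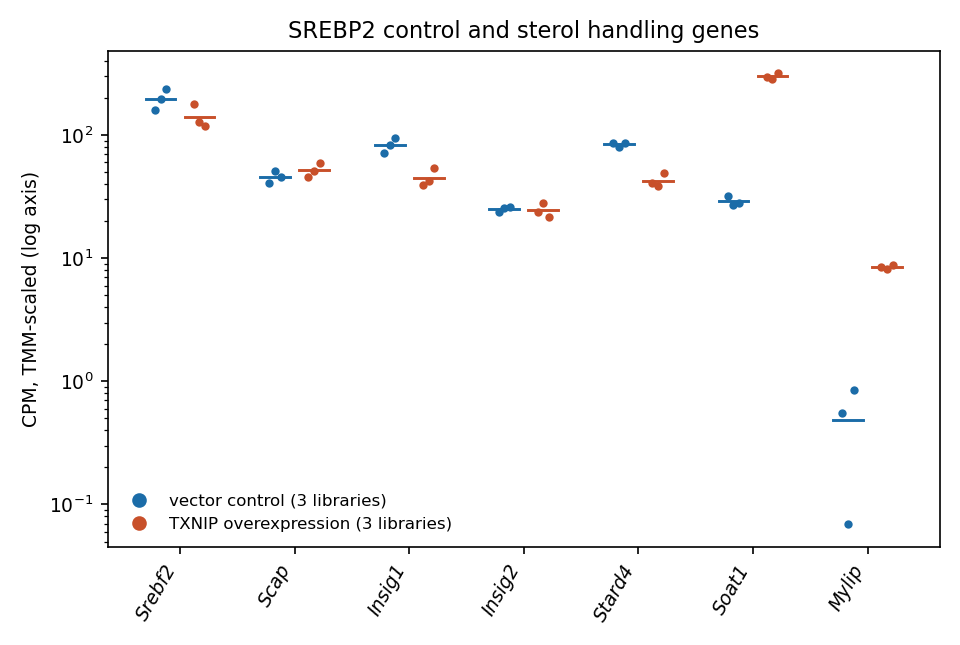
Level of the SREBP2 control genes and of Stard4, Soat1 and Mylip in each of the 6 libraries, as TMM-scaled CPM on a log axis; points are libraries and short lines are group means. Insig1 and Stard4 separate downward, Insig2 and Scap overlap, and Soat1 and Mylip separate upward.

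The 3 genes of sterol transport, storage and receptor turnover all changed, 1 lower and 2 higher, where 64.5% of all tested genes changed. Stard4, a soluble sterol carrier and known SREBP target, had 86.4, 80.1 and 86.3 CPM in the controls, against 41.0, 38.6 and 48.8 CPM in the TXNIP libraries (log2 fold change -0.98 ± 0.14; edgeR adjusted p = 6.53e-05). Soat1, which esterifies cholesterol for storage in lipid droplets and is the main such enzyme of macrophages, went the other way. It had 31.8, 27.2 and 27.9 CPM in the controls, against 295, 286 and 317 CPM in the TXNIP libraries. The log2 fold change of Soat1 was 3.37 ± 0.13 (edgeR adjusted p = 5.67e-10), 10.3-fold higher. Mylip had 0.549, 0.0692 and 0.848 CPM in the controls, from 5, 1 and 13 reads, and 8.43, 8.12 and 8.88 CPM in the TXNIP libraries, from 71, 84 and 98 reads. Its level was low throughout and its groups stood far apart (log2 fold change 4.09 ± 0.58; edgeR adjusted p = 5.54e-05). Without control replicate 3 the log2 fold change of Mylip was 4.92, and without control replicate 2 it was 3.53. Leukocyte markers rose in the same libraries as Soat1 and Mylip.

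Ratios of a pair of genes within a library do not depend on how libraries are scaled against each other. The log2 ratio of Insig1 to Insig2 reads was 1.58, 1.69 and 1.87 in the controls and 0.74, 0.59 and 1.31 in the TXNIP libraries, a difference of -0.83. That of Tm7sf2 to Lbr was -4.00, -3.89 and -3.65 and then -6.06, -5.13 and -5.27, a difference of -1.64. Srebf2 to Scap gave 1.97, 1.96 and 2.36 in the controls and 1.95, 1.33 and 0.998 in the TXNIP libraries, a difference of -0.67, and TXNIP replicate 1 lay just below the controls. Hmgcs1 to Soat1 went from 3.87, 4.17 and 4.06 to -0.33, -0.43 and -0.65, a difference of -4.50. None of the 4 ratios overlapped between the groups. For single genes, the groups did not overlap for 70.4% of all tested genes. Each exact two-sided permutation test gave p = 0.1 and, adjusted over the 4 ratios, 0.1, the smallest value that 3 libraries against 3 allow, so that none could pass 0.05.

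**Figure D4:**
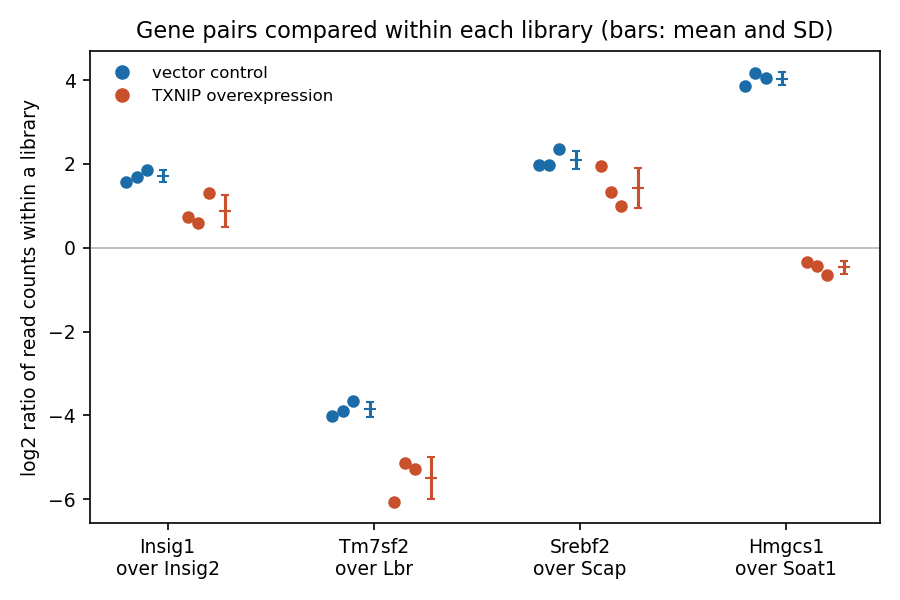
Log2 ratio of read counts for 4 gene pairs within each library, with group means and SD beside the points. The vertical axis has 0 where both genes have equal counts; for each pair the 3 vector control libraries lie above the 3 TXNIP libraries.

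Other genes around the pathway were taken from lists outside the 27 and described by counts. Of 14 tested genes of SREBP processing and sterol-regulated degradation, 5 fell, 2 rose and 7 did not pass, with a median log2 fold change of -0.20. The share that fell, 35.7%, was near the 33.9% of all tested genes, and 14.3% rose, against 30.6%. The proteases that release SREBP moved apart. Mbtps1, which makes the first cut, fell from 250.03 ± 14.9 to 124 ± 3.32 CPM, and Mbtps2, which makes the next, rose from 14.0 ± 2.12 to 29.2 ± 3.74 CPM (SD, n = 3 each; edgeR adjusted p = 8.57e-06 and 0.000515). Erlin2, of the machinery that degrades sterol-regulated proteins, fell, with a log2 fold change of -1.49 ± 0.16. Srebf1, the paralog of Srebf2, had 86.4, 101 and 87.8 CPM and then 51.4, 83.5 and 89.4 CPM, and it did not pass (edgeR adjusted p = 0.193).

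Of 18 tested genes of intracellular cholesterol transport and esterification, 8 rose, 4 fell and 6 did not pass, with a median log2 fold change of 0.37. The share that changed, 66.7%, was near the 64.5% of all tested genes. Of the 18, 1 had fewer than 10 reads over the TXNIP libraries and passed the filter through the controls. Lipa, the lysosomal lipase that frees cholesterol from lipoprotein esters, rose from 56.0 ± 24.9 to 308 ± 19.1 CPM, and control replicate 1 (84.7 CPM) was the highest control. The oxysterol-binding protein homologs Osbpl8 and Osbpl5 moved apart, from 13.1 ± 1.01 to 109 ± 2.40 CPM and from 24.7 ± 3.44 to 0.542 ± 0.0775 CPM. Tspo, a mitochondrial cholesterol-binding protein gene, fell from 227 ± 30.8 to 58.1 ± 8.33 CPM. In the list of efflux, LXR and oxysterol genes, 10 of 14 were tested, of which 5 rose, 3 fell and 2 did not pass (80% changed, against 64.5% of all tested genes), and 2 of the 10 had fewer than 10 reads over the controls and passed the filter through the TXNIP libraries. Abcg1, a sterol efflux pump and LXR target also expressed by macrophages, was without reads in the controls and reached 53.0, 70.0 and 79.9 CPM in the TXNIP libraries. Against a floor of 3 reads over the controls it was at least 876-fold higher, where the floor covers counting error only. Abca1, another efflux pump of the list, also had no read in the controls. It had only 43 reads over the TXNIP libraries (mean 1.51 CPM) and was not tested. Cyp27a1, the mitochondrial sterol hydroxylase, went from 0.185 ± 0.32 to 9.16 ± 2.11 CPM, and Scarb1, the high-density lipoprotein receptor, from 55.3 ± 6.37 to 95.5 ± 6.76 CPM. Rxra, a partner of LXR, went from 15.7 ± 2.05 to 0.59 ± 0.26 CPM. Its paralog Rxrb rose from 52.2 ± 8.80 to 78.5 ± 5.89 CPM (edgeR adjusted p = 0.00474). Of the LXR genes, Nr1h2 fell (edgeR adjusted p = 0.0342) and Nr1h3 did not pass (edgeR adjusted p = 0.186). Both lists lie in the libraries with 8740 to 9357 CPM of leukocyte markers.

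Of 18 tested genes of the isoprenoid branch, which use the products of Fdps and Ggps1, 6 rose, 5 fell and 7 did not pass. The shares that rose (33.3%) and fell (27.8%) were near the 30.6% and 33.9% of all tested genes. Nus1, a subunit of the dolichol-making prenyltransferase, rose from 105 ± 4.91 to 327 ± 37.4 CPM, and Rabggta, a subunit of the Rab prenyltransferase, from 9.74 ± 1.30 to 26.0 ± 4.28 CPM. Coq2 of ubiquinone synthesis fell from 27.3 ± 4.95 to 11.4 ± 2.29 CPM, and the protease gene Rce1, which trims prenylated proteins, from 43.8 ± 5.07 to 19.7 ± 5.18 CPM. Among 13 tested redox partners and other lipoprotein receptors, 6 fell, 3 rose and 4 did not pass. Thus 69.2% changed, against 64.5% of all tested genes. Of the 13, 2 had fewer than 10 reads over the TXNIP libraries and passed the filter through the controls. Por, the reductase that feeds electrons to CYP51 and squalene epoxidase, rose from 109 ± 3.85 to 303 ± 17.5 CPM (SD, n = 3 each), while both of those enzymes' transcripts fell. Vldlr, a lipoprotein receptor gene, had 57.7, 43.3 and 42.7 CPM in the controls. No TXNIP library had a read of it, which makes it at least 476-fold lower. Lrp1, a receptor for lipoprotein remnants also expressed by macrophages, rose from 2.43 ± 0.96 to 94.4 ± 13.7 CPM.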

How the data were processed

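The authors deposited raw read counts per gene symbol, 1 file per library, per the file headers. Bowtie2, bedtools and the build mm10 are listed in the submitters' processing notes. Their versions and settings, the annotation and the use of strand are not given in the sources used. Libraries were made with a Lexogen 3' kit, per the labels' protocols, and read single-end over 75 cycles. Genes were filtered with filterByExpr, scaled by TMM and tested two-sided with edgeR 4.0.16 (R 4.3.3), group as the only term, robust dispersions, Benjamini-Hochberg adjustment over 12088 genes and a threshold of 0.05. The standard error is the log2 fold change over the square root of F. Within-library ratios had 0.5 read added to each count. All 27 members are named, as are up to 4 genes of each other list by smallest adjusted p, with some items not reported here; the members and lists were chosen with earlier results of these data known. No molecular identifiers are described, so floors cover counting error only. Positions are from GENCODE M21 (GRCm38), and transcript ends were matched with blastn 2.17.0 over 75 bases or more. The test was run on simulated counts in which few genes changed. That run does not check scaling or error control in data where 64.5% of tested genes are called. Alternatives were RLE, upper-quartile and unscaled library sizes, other filters, DESeq2 1.42.0, limma-voom 3.58.1, a replicate block, left-out libraries and stricter thresholds. Plots used matplotlib 3.10.9.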

Additional observations from a re-analysis of the deposited data

How the results depend on the processing

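Over 18 alternatives, 17 of the 27 genes kept their direction and their side of the threshold under each. The count of genes that fell was 15 under RLE and upper-quartile factors, DESeq2, limma-voom, both other filters, dispersions not robust and without Rn45s, 16 with library size alone, 12 at an adjusted p of 0.01 and 10 with a minimum fold of 1.5, where 2 rose. Leaving out single libraries gave 12 to 16 lower. It moved the sign of 3 genes that had not passed. The log2 fold change of Fdps ranged from -0.052 (without control replicate 1) to 0.165 (without control replicate 2), that of Fdft1 from -0.198 (without TXNIP replicate 2) to 0.0982 (without TXNIP replicate 1), and that of Insig2 from -0.141 (without TXNIP replicate 2) to 0.0543 (without TXNIP replicate 3). The cause was not tested. Idi1, Srebf2 and Tm7sf2 were lost at an adjusted p of 0.01. With a minimum fold of 1.5, Idi1, Sqle, Tm7sf2, Lbr, Sc5d and Srebf2 were lost. Restricted to at least 5 CPM in both groups, a choice made after seeing the data, 4907 genes were called in place of 7796. Fewer genes were tested, 8424 in place of 12088. Of the 8424, 28.2% fell and 30% rose, against 33.9% and 30.6% of the 12088. Without Tm7sf2 and Mylip, which lie under 5 CPM in 1 group, 25 members were left, of which 14 fell and 2 rose. The ratios kept their direction without any 1 library and with 1 read added.

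Equal replicate numbers were not taken as pairs, since the labels do not say that they are. Deviations from the group means correlated weakly, at 0.07, 0.02 and 0.04 for replicates 1, 2 and 3. Control replicate 2 correlated slightly better with TXNIP replicate 3 (0.025) than with its own number (0.021). These values do not decide whether the numbers are pairs. The replicate block gave 15 members lower, 3 higher and 7767 genes called. Depth limits Mylip (19 reads over the controls) and Tm7sf2 most.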
